A study of Mus musculus with 10 samples.

Results

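The genes described here encode the nuclear subunits of the mitochondrial respiratory chain, complexes I to V, in mouse liver. They were chosen by symbol (Ndufa, b, c, s or v with a number, Sdha to Sdhd, Uqcr, Cox4 to Cox8 and Atp5, without Ndufa3 and Cox6b2) among probe sets with exactly 1 gene symbol, and where a gene had several, the one of highest average level across the 10 arrays was kept. This gave 79 genes of 18193 with such a probe set: 34 of complex I, 4 of complex II, 8 of complex III, 16 of complex IV and 17 of complex V. A filter on low values, an average of 4 log2 across APOE4 and APOE3 arrays together, was passed by 72 of them, and these were tested.

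The livers came from 5 female APOE4 mice, homozygous for a human APOE4 gene in place of mouse Apoe, and they were compared with those of 5 female APOE3 mice, homozygous for human APOE3 at the same place. APOE4 and APOE3 are isoforms of apolipoprotein E, which clears remnant lipoproteins, and both groups lack the mouse gene, so no animal is wild type. All mice were on the C57BL/6 background, 3 months old, expressed the human gene under the mouse Apoe promoter, and ate a diet with 2 g/kg cholesterol in which milk fat supplied 41% of the energy. The design text gives 6 weeks on this diet and the growth protocol 2 months, so the time on it is uncertain. The lines were B6.129P2-Apoetm3(APOE*4)Mae N8 for APOE4 and B6.129P2-Apoetm2(APOE*3)Mae N8 for APOE3. Each liver gave 1 extract and 1 array.

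Complexes I and II take electrons from NADH and succinate, complex III passes them from ubiquinol to cytochrome c, and complex IV passes them to oxygen. Complexes I, III and IV pump protons across the inner mitochondrial membrane, and complex V, the ATP synthase, uses the return of those protons to make ATP. In hepatocytes this chain takes up the electrons released by fatty acid oxidation and powers gluconeogenesis and urea synthesis. Some subunits of complex IV exist in a form found in most tissues, liver included, and another found in heart and skeletal muscle, testis or lung.

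Array-wide measures set the scale. The median over all probe sets of an array lay between 2.62 and 2.67 log2. Values under about 4 are close to the floor of the GCRMA method, where differences have no sure size, and no level is compared between genes, since probe sets bind their targets unequally. Hepatocyte markers such as albumin (Alb, 14.48 ± 0.041 log2 in APOE4 and 14.46 ± 0.065 in APOE3; SD, n = 5 each) were near the top of the scale, and 10 of the 11 on the array were tested; Ass1 was listed under 4 on 9 arrays. The median tested probe set was 0.047 log2 higher in APOE4, and the differences below are not corrected for it. In 1 APOE4 liver, replicate 3, the array also read striated muscle transcripts, as described with complex IV.

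No respiratory chain gene passed the adjusted threshold of 0.05 between APOE4 and APOE3 livers: 0 of 72 were called, 0 upward and 0 downward, in limma with Benjamini-Hochberg adjustment over all 14732 probe sets (background 0.0815% called). Only Cox6b1 had an unadjusted p under 0.05 (1 of 72 genes; background 8% of probe sets in either direction and 5.53% higher in APOE4), and its adjusted p in limma was 0.607. That count was 4 with array weights or with trend and robust settings and 0 with renewed quantile normalization or the replicate number as a block. The 5 animals of one genotype were not separated from the 5 of the other for any tested gene (0 of 72, background 2.02%). In whole liver, fewer cells of a type and less RNA per cell cannot be told apart. The differences ran from -0.17 log2 for Cox6c to 0.23 for Uqcr10, with a median of 0.056. For the kept probe sets, the measurements were tight enough to bound most differences. In 71 of the 72 genes the whole 95% interval lay within a 1.5-fold change either way, the exception being the low Cox7a1. The same held for 10602 of all 14732 probe sets and 3135 of the 3617 with a mean of at least 9. Among the 69 tested genes with a mean of at least 9 log2 the lowest interval bound of a kept probe set was 0.770-fold and the highest 1.44-fold. Intervals of some further probe sets of these genes reached past 1.5-fold. Among them were, upward, Cox6b1 (0.61 log2), Uqcr10 (0.67), Ndufb2 (0.68) and Atp5a1 (0.85), and, downward, Atp5c1 (-0.67, at a mean of 4.00).

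**Figure D1:**
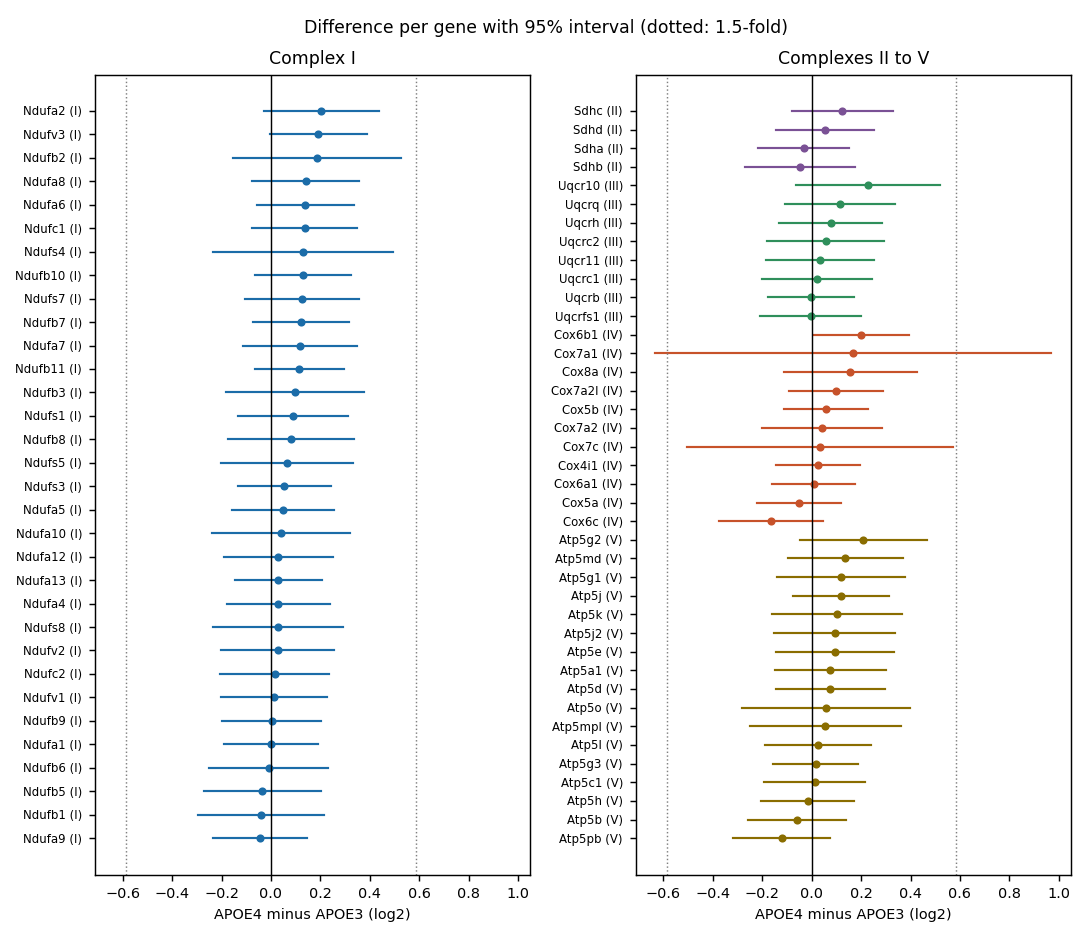
Difference in log2 between APOE4 and APOE3 livers (x axis) for each of the 72 tested respiratory chain genes (rows), as the point estimate and its 95% interval from limma with 5 arrays per genotype. Dotted lines mark a 1.5-fold change either way. Most points lie slightly right of 0, the interval of Cox6b1 alone lies wholly on one side of it, and that of Cox7a1 alone crosses a dotted line.

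Most genes lay slightly on the higher side in APOE4, and how many did varied with the scaling. As deposited, 59 of 72 (81.9%) were higher in APOE4, where 60.9% of all probe sets were. With each array centred on the median of its tested probe sets, a setting chosen after seeing the data that moves all probe sets of an array alike, 34 of 72 (47.2%) were higher, against 47.5% of all probe sets, and the median of the chain was -0.001. Renewed quantile normalization gave 46 of 72 (63.9%) and 51.0%, with a median of 0.022, and centring on the median of all probe sets 63 of 72 (87.5%) and 67.6%, with a median of 0.087. The share of the chain was thus above that of all probe sets under 3 of these scalings and level with it under the centring on tested probe sets. As deposited, the median difference was 0.056 in the chain and 0.041 over all 3617 probe sets with a mean of at least 9.

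Complex I is the NADH dehydrogenase, with a core that carries the flavin and the iron-sulphur clusters and many accessory subunits around it. Of 34 genes 32 were tested, and 28 of these were higher and 4 lower in APOE4, with a median of 0.059 log2 and 0 past the threshold. The core dehydrogenase and quinone-arm genes measured here (6 of the 7 listed, Ndufs1, Ndufs3, Ndufs7, Ndufs8, Ndufv1 and Ndufv2) had a median of 0.041, and the 26 tested accessory genes one of 0.072, with 22 of the 26 higher. Ndufv1, which binds NADH and the flavin, was at 10.90 ± 0.13 log2 in APOE4 and 10.89 ± 0.12 in APOE3 (SD, n = 5 each). Ndufs1, the largest iron-sulphur subunit, was at 9.89 ± 0.12 log2 in APOE4 and 9.80 ± 0.15 in APOE3 (SD, n = 5 each). Both differences, 0.012 and 0.088 log2, were within their SE of 0.10 and 0.10.

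Ndufv3, an accessory subunit of the NADH-binding arm, had the smallest p in complex I. It read 11.25, 11.25, 11.21, 11.31 and 11.18 log2 in APOE4 livers, against 11.23, 10.87, 11.10, 11.08 and 10.96 in APOE3 livers. All 5 APOE4 livers were above 4 of the 5 APOE3 livers, and APOE3 replicate 1 lay inside the APOE4 range. The difference was 0.19 log2 (SE 0.089, adjusted p = 0.633 in limma). Ndufa2, another accessory subunit of that arm, read 12.03, 12.09, 12.06, 12.19 and 12.04 log2 in APOE4 livers, against 12.16, 11.92, 11.71, 11.93 and 11.67 in APOE3 livers. Here too APOE3 replicate 1 lay inside the APOE4 range and the other 4 APOE3 livers below it, with a difference of 0.20 (SE 0.11, adjusted p = 0.656 in limma). Ndufa6 differed by 0.14 (adjusted p = 0.712 in limma).

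Among the complex I genes Ndufs4, an accessory subunit whose loss causes a Leigh-like disease in mice, varied most between animals of a genotype. It read 9.93, 10.44, 10.06, 10.24 and 10.02 log2 in APOE4 livers, against 10.56, 10.05, 9.86, 9.89 and 9.67 in APOE3 livers. The highest and the lowest value were both from APOE3 livers, and the difference of 0.13 had an SE of 0.17 (adjusted p = 0.864 in limma). The only probe set of Ndufb1 was just above the filter at a mean of 4.09, and those of Ndufb4 (1.76) and Ndufa4l2 (2.10) were under it and read near the floor in every animal. Ndufa4 was counted here by its symbol, although biochemical work places its product in complex IV. The mitochondrially encoded ND5, a proton-pumping subunit of complex I transcribed from the mitochondrial genome, was looked up after the list's own names had found none. It read 13.19, 13.13, 13.19, 13.17 and 13.04 log2 in APOE4 livers, against 13.34, 13.07, 13.28, 13.12 and 13.23 in APOE3 livers. The genotypes overlapped, and the difference was -0.062 (SE 0.085, adjusted p = 0.872 in limma).

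Complex II, succinate dehydrogenase, is shared with the tricarboxylic acid cycle and has no mitochondrially encoded subunit. All 4 genes were tested, with 2 higher, 2 lower and a median of 0.011 log2. The catalytic genes Sdha, the flavoprotein, and Sdhb, the iron-sulphur protein, differed by -0.033 (SE 0.084) and -0.048 (SE 0.10). Of the membrane anchors, Sdhd differed by 0.054 and Sdhc by 0.12 (SE 0.092, adjusted p = 0.746 in limma). Sdhc read 10.79, 10.78, 10.71, 10.72 and 10.83 log2 in APOE4 livers, against 10.89, 10.61, 10.62, 10.61 and 10.48 in APOE3 livers. As with Ndufv3, 4 APOE3 livers were below all APOE4 livers, and APOE3 replicate 1 was the highest of the 10.

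Complex III, the cytochrome bc1 complex, had 8 tested genes, 6 higher and 2 lower in APOE4, with a median of 0.045 log2. Uqcrfs1, the Rieske iron-sulphur protein, differed by -0.0041 (SE 0.093) and Uqcrc1, a core protein, by 0.021 (SE 0.10). Uqcr10, a small subunit, had the largest difference of the whole chain, 0.23 (SE 0.13, adjusted p = 0.689 in limma). It read 9.53, 9.76, 9.78, 9.72 and 9.48 log2 in APOE4 livers, against 9.81, 9.31, 9.44, 9.09 and 9.48 in APOE3 livers. The groups overlapped, since APOE3 replicate 1 was the highest of all and APOE3 replicate 5 was just above the lowest APOE4 liver. Its other tested probe sets differed by 0.19 and 0.34, each with an adjusted p of at least 0.624 in limma. Uqcrq and Uqcrh differed by 0.11 and 0.076.

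Complex V, the ATP synthase, had 17 tested genes, 14 higher and 3 lower in APOE4, with a median of 0.075 log2. In the catalytic F1 head, Atp5a1 (alpha) and Atp5b (beta), which together form the sites of ATP synthesis, differed by 0.076 (SE 0.10) and -0.061 (SE 0.09). The 5 listed F1 genes, which include Atp5c1, Atp5d and Atp5e of the central stalk, had a median of 0.075. The 10 listed genes of the membrane part and peripheral stalk had one of 0.076, and Atp5md and Atp5mpl were in neither list. Atp5g2, which encodes the c subunit of the proton-driven ring, as Atp5g1 and Atp5g3 also do, read 10.07, 10.04, 9.96, 9.82 and 9.82 log2 in APOE4 livers, against 10.001, 9.59, 9.58, 9.56 and 9.93 in APOE3 livers. The groups overlapped through APOE3 replicates 1 and 5. The difference was 0.21 (SE 0.12, adjusted p = 0.678 in limma), against 0.12 for Atp5g1 and 0.016 for Atp5g3. Atp5j, a stalk subunit, differed by 0.12. Atp5pb, the b subunit of the peripheral stalk, read 12.69, 12.72, 12.72, 12.69 and 12.55 log2 in APOE4 livers, against 12.95, 12.86, 12.79, 12.61 and 12.77 in APOE3 livers. Apart from APOE3 replicate 4, the APOE3 livers were above all APOE4 livers. The difference was -0.12 (SE 0.089, adjusted p = 0.743 in limma), but its other probe set was at 0.044 (SE 0.11).

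Complex IV, cytochrome c oxidase, held the gene with the smallest p of the chain. That gene, Cox6b1, lies on chromosome 7, as Apoe does. The part of DNA linked to the replaced gene, which may differ between the lines, was not tested. Cox6b1, which encodes a small subunit facing the intermembrane space, read 12.86, 12.95, 12.81, 12.79 and 12.77 log2 in APOE4 livers, against 12.84, 12.54, 12.63, 12.55 and 12.60 in APOE3 livers. All 5 APOE4 livers were above 4 of the APOE3 livers, and APOE3 replicate 1 lay among the APOE4 values. It averaged 12.83 ± 0.073 log2 in APOE4 and 12.63 ± 0.12 in APOE3 (SD, n = 5 each), 1.15-fold higher, with a difference of 0.20 log2 (SE 0.088, unadjusted p = 0.0427, adjusted p = 0.607 in limma). A further Cox6b1 probe set read 10.91, 11.02, 10.83, 10.83 and 10.77 log2 in APOE4 livers, against 10.83, 10.41, 10.46, 10.33 and 10.46 in APOE3 livers. The order was much the same, and here the difference was 0.38 (SE 0.11, adjusted p = 0.472 in limma). Cox6c, a further small subunit, lay on the other side. It read 12.46, 12.54, 12.53, 12.47 and 12.21 log2 in APOE4 livers, against 12.69, 12.52, 12.65, 12.46 and 12.72 in APOE3 livers. APOE4 replicate 5 was the lowest of the 10, and 3 APOE3 livers were above all APOE4 livers. Its difference was the lowest of the chain at -0.17 (SE 0.10, adjusted p = 0.688 in limma), but its other probe set was at 0.014. Of the 11 tested genes of the complex 9 were higher and 2 lower in APOE4, with a median of 0.043. Cox4i1 and Cox5a, subunits that contact the catalytic core, differed by 0.026 and -0.053, each with an SE under 0.08.

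**Figure D2:**
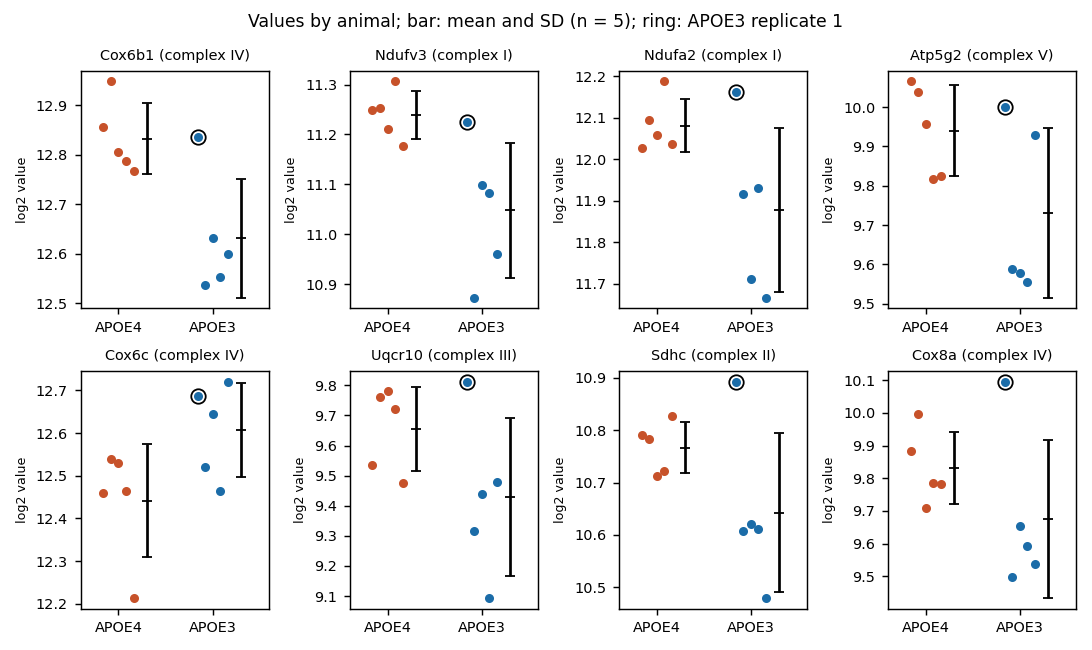
Log2 values by animal for 8 respiratory chain genes, each among the 3 of smallest p in its complex, with APOE4 left and APOE3 right in each panel and the mean and SD (n = 5) beside the points. The ringed point is APOE3 replicate 1, which lies within the APOE4 range for Cox6b1, Ndufv3, Ndufa2 and Atp5g2 and above it for Cox6c, Uqcr10, Sdhc and Cox8a.

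Complex IV was read mainly in its forms of most tissues, which were well above the floor: Cox6a1 was at 13.72 ± 0.063 log2 in APOE4 and 13.71 ± 0.046 in APOE3, Cox7a2 at 12.52 ± 0.12 log2 in APOE4 and 12.48 ± 0.19 in APOE3 and Cox8a at 9.83 ± 0.11 log2 in APOE4 and 9.68 ± 0.24 in APOE3 (SD, n = 5 each). Cox8a read 9.88, 9.997, 9.71, 9.79 and 9.78 log2 in APOE4 livers, against 10.10, 9.50, 9.65, 9.59 and 9.54 in APOE3 livers. APOE3 replicate 1 was the highest of the 10, and the other 4 APOE3 livers were below all APOE4 livers. The differences of Cox6a1, Cox7a2 and Cox8a were 0.0079, 0.043 and 0.16 log2, and the smallest of their adjusted p-values in limma was 0.763. The muscle forms Cox6a2 and Cox8b and the lung form Cox4i2 were under 4 in every animal and were not tested, as were Cox7b2 and Cox8c, known from testis. Cox7a1, the muscle form of subunit 7a, was just above the filter at a mean of 4.03 and had the widest spread of the tested genes. It read 3.91, 4.39, 4.46, 4.58 and 3.23 log2 in APOE4 livers, against 4.86, 4.63, 3.64, 3.12 and 3.47 in APOE3 livers. Both genotypes spanned 4, and the difference was 0.17 with an SE of 0.36. Cox7c, a subunit of all tissues whose kept probe set reads low here, was also just above the filter (4.10), and Cox8b was the nearest below it (2.46).

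The muscle forms Cox8b and Cox6a2 were highest in a single animal. Cox8b read 2.43, 2.57, 3.37, 2.34 and 2.43 log2 in APOE4 livers, against 2.55, 2.33, 2.23, 2.46 and 1.91 in APOE3 livers. Cox6a2 read 1.81, 1.74, 2.52, 1.78 and 1.76 log2 in APOE4 livers, against 1.94, 1.80, 1.96, 1.89 and 1.75 in APOE3 livers. In both, APOE4 replicate 3 stood above the other 9 livers while still under 4. Of 10 striated muscle markers, 5 were at 4 or above on that array (Myh1 8.20, Acta1 7.65, Tnnc2 6.88, Myl1 6.05, Mylpf 5.23 log2) and 0 on any of the other 9, where Myh1 ran from 1.62 to 1.98. The summed log2 level of the 10 markers was 48.4 in APOE4 replicate 3, and it was 21.1 to 22.5 in the other APOE4 livers, against 21.0 to 22.3 in APOE3 livers. The part of muscle RNA in the readings of Cox8b and Cox6a2 was not tested. Without this animal the median difference of the chain was 0.055 log2 and 0 genes passed. Ucp1 and Cidea, markers of brown fat, were under 4 on all arrays.

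**Figure D3:**
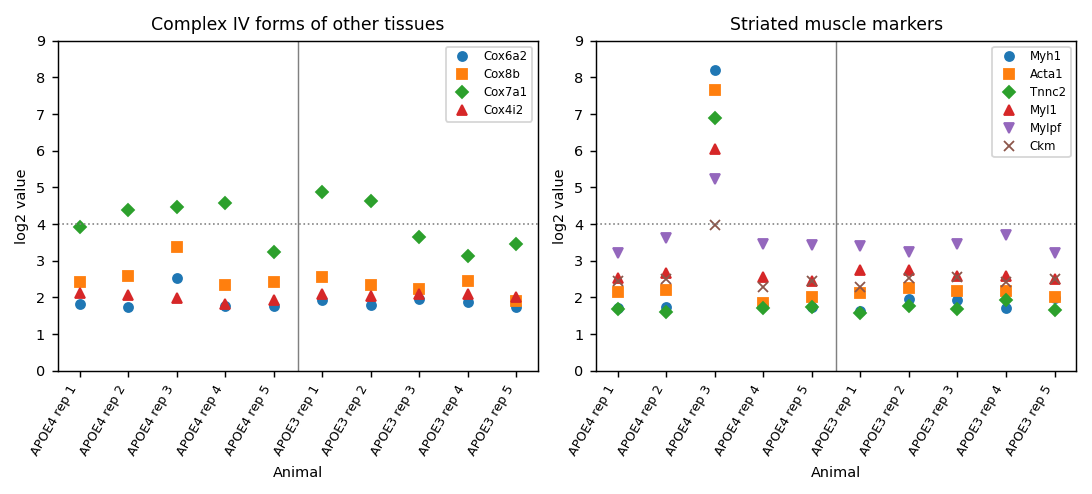
Log2 values by animal (APOE4 left of the vertical line, APOE3 right) of 4 complex IV forms of other tissues and of 6 striated muscle markers. The dotted line marks 4 log2. APOE4 replicate 3 holds the highest value of Cox6a2 (2.52) and Cox8b (3.37) and of the 6 muscle markers shown, among them Myh1 at 8.20.

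The genes of the chain varied together between animals. For each tested gene the mean over the 10 arrays was subtracted, and the remainders were averaged per animal. The 72 genes averaged 0.011, 0.111, 0.047, 0.029 and -0.043 log2 in APOE4 replicates 1 to 5, against 0.192, -0.095, -0.070, -0.153 and -0.028 in APOE3 replicates 1 to 5. APOE3 replicate 1 thus stood highest and APOE3 replicate 4 lowest, and the APOE4 livers lay between them. APOE3 replicate 1 was above the gene's own mean for 69 of 72 genes and the highest of the 10 animals for 43 (59.7%), which it was for 16.5% of all probe sets with a mean of at least 9. APOE4 replicate 2 was also above the mean for 69 genes (95.8%, against 60.9% of those probe sets) and the highest for 7 (9.72%, against 8.76%). APOE3 replicates 4 and 2 were the lowest of the 10 for 25 and 22 genes (34.7% and 30.6%, against 15.9% and 15.5% of those probe sets).

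The high reading of APOE3 replicate 1 was found in each complex. In APOE3 replicate 1 the mean deviation was 0.202 log2 in complex I, 0.182 in II, 0.203 in III, 0.144 in IV and 0.203 in V, and it was the highest of the 10 animals in all 5. In APOE3 replicate 4 the mean deviation ran from -0.172 in complex V to -0.067 in complex II. For 40 genes with a further tested probe set, the deviations read by those were 0.204 in APOE3 replicate 1 and -0.172 in APOE3 replicate 4. Between genotypes, the first and the further probe set differed in the same direction for 29 of these 40 genes, with a median gap of 0.063 log2.

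**Figure D4:**
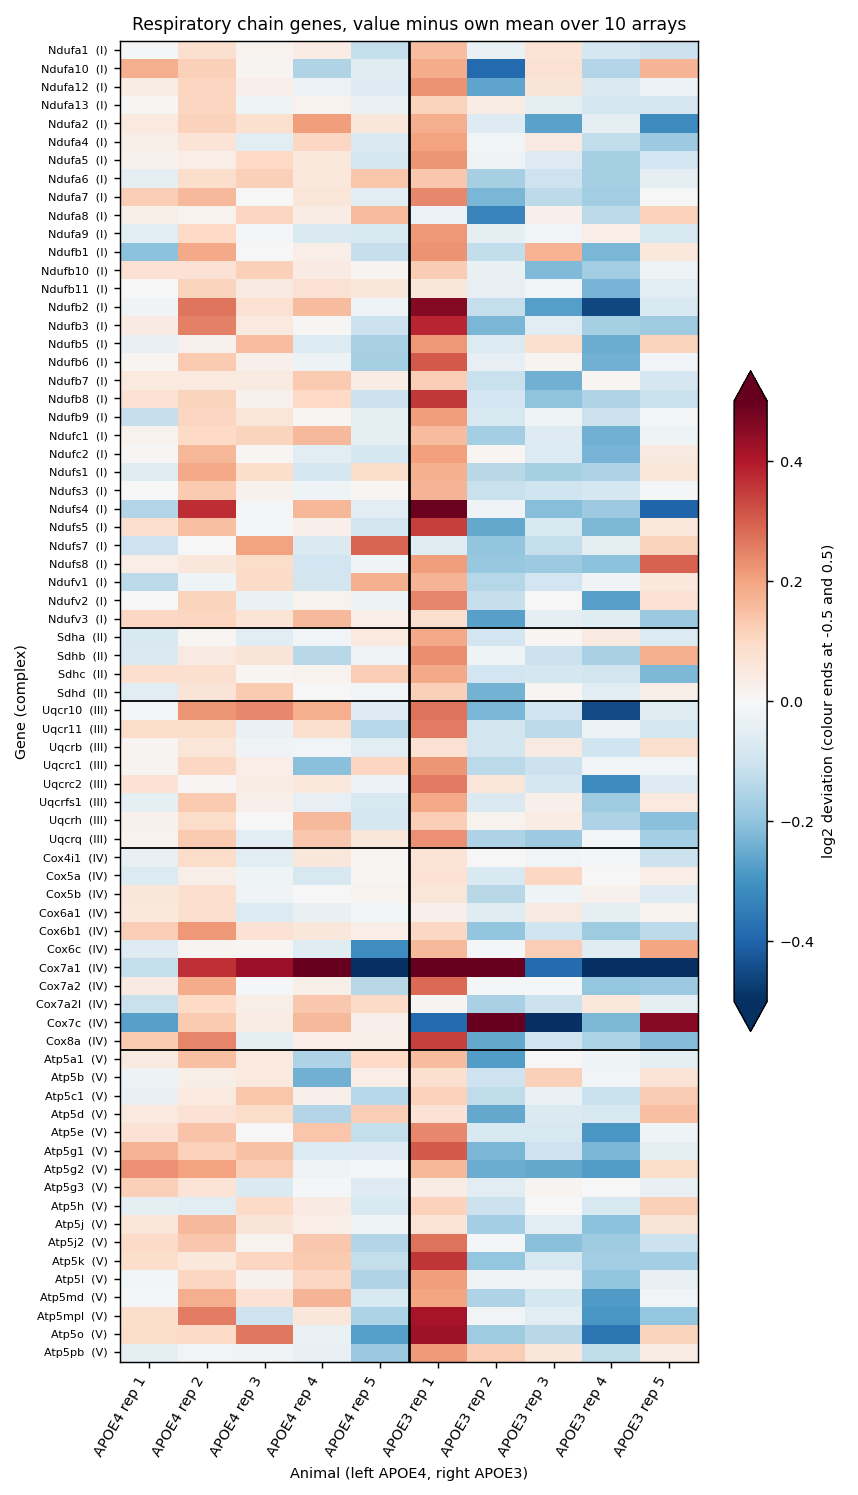
Deviation in log2 of each of the 72 tested genes (rows, grouped by complex) from its own mean over 10 arrays, by animal (columns, APOE4 left of the vertical line, APOE3 right). The column of APOE3 replicate 1 is red for 69 genes, and those of APOE3 replicates 2 and 4 are blue for 65 each.

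The spread within a genotype was mostly wider in APOE3. The SD over 5 animals was larger in APOE3 than in APOE4 for 65 of 72 genes (90.3%), where it was for 60.9% of all probe sets, with a median SD of 0.089 log2 in APOE4 and 0.154 in APOE3. Without APOE3 replicate 1 it was larger in APOE3 for 43 of 72 genes (59.7%), against 53.8% of all probe sets.

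Left out, APOE3 replicate 1 also changed the comparison of the genotypes. Without it 67 of 72 genes were higher in APOE4 (59.5% of all probe sets), the median difference was 0.113 log2, against 0.056 with all animals, and 10 genes, all higher in APOE4, had an unadjusted p under 0.05 (background 11.4% in either direction, 8.02% higher). In 9 of 72 genes (12.5%) the remaining 4 APOE3 livers were all below the 5 APOE4 livers (background 5.08% in either direction, 3.77% higher): Ndufa2, Ndufb2, Ndufb7, Ndufb10, Ndufb11, Ndufv3, Sdhc, Cox6b1 and Cox8a. Still 0 genes passed the adjusted threshold, and the smallest adjusted p in limma was 0.326, for Cox6b1. APOE3 replicate 1 was singled out because it read highest in the chain. Leaving it out thus lowers the APOE3 means of most of these genes by construction. The counts without it are therefore no separate evidence of a difference between the genotypes. Leaving out APOE3 replicate 4 moved the comparison the other way, to 45 of 72 genes higher and a median of 0.024.

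Measures of RNA quality and of cell type markers are given beside these deviations, and their part in them was not tested. The 3' minus 5' difference of the Gapdh control probe sets, which grows as RNA is broken, was 0.299, 0.331, 0.324, 0.617 and 0.407 log2 in APOE4 replicates 1 to 5, against 0.203, 0.729, 0.407, 0.551 and 0.308 in APOE3 replicates 1 to 5. It was lowest in APOE3 replicate 1, where the chain was highest, and among the 3 highest in APOE3 replicates 2 and 4, where the chain was lowest; APOE4 replicate 4 had a high value too, with the chain at 0.029. The same difference for Actb was 2.51, 2.58, 2.46, 2.97 and 2.697 in APOE4 replicates 1 to 5, against 2.55, 3.20, 2.56, 2.85 and 2.22 in APOE3 replicates 1 to 5. It too was among the 3 highest in APOE3 replicates 2 and 4, but 3 animals were lower than APOE3 replicate 1. The 10 tested hepatocyte markers deviated by -0.124, -0.156, 0.087, -0.094 and 0.114 in APOE4 replicates 1 to 5, against -0.266, -0.100, 0.209, 0.206 and 0.124 in APOE3 replicates 1 to 5. These means include Tat and Pck1, which varied most within genotype (SD 0.74 and 0.56 log2). In APOE3 replicate 1 Tat was at 9.89 and Pck1 at 12.03, against means over all arrays of 10.62 and 12.89. Apoa1, Cps1 and Hnf4a were also lower there, while Ttr, Apoc3 and Cyp2e1 lay near their means. Kupffer cell and macrophage markers, 13 of 13 tested, deviated by 0.444, -0.411, -0.372, 0.255 and -0.516 in APOE4, against -0.236, 0.254, -0.162, 1.04 and -0.294 in APOE3. They were highest in APOE3 replicate 4, where the chain was lowest, but 4 animals were lower than APOE3 replicate 1, where the chain was highest. The mean in APOE3 replicate 4 includes Marco, which was under 4 on 7 arrays and at 9.99 log2 in that animal. Cd163 went the other way and was lowest in that animal, at 6.37. The summed log2 level of the 13 markers ran from 108 to 120 in APOE4 and from 111 to 128 in APOE3.

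**Figure D5:**
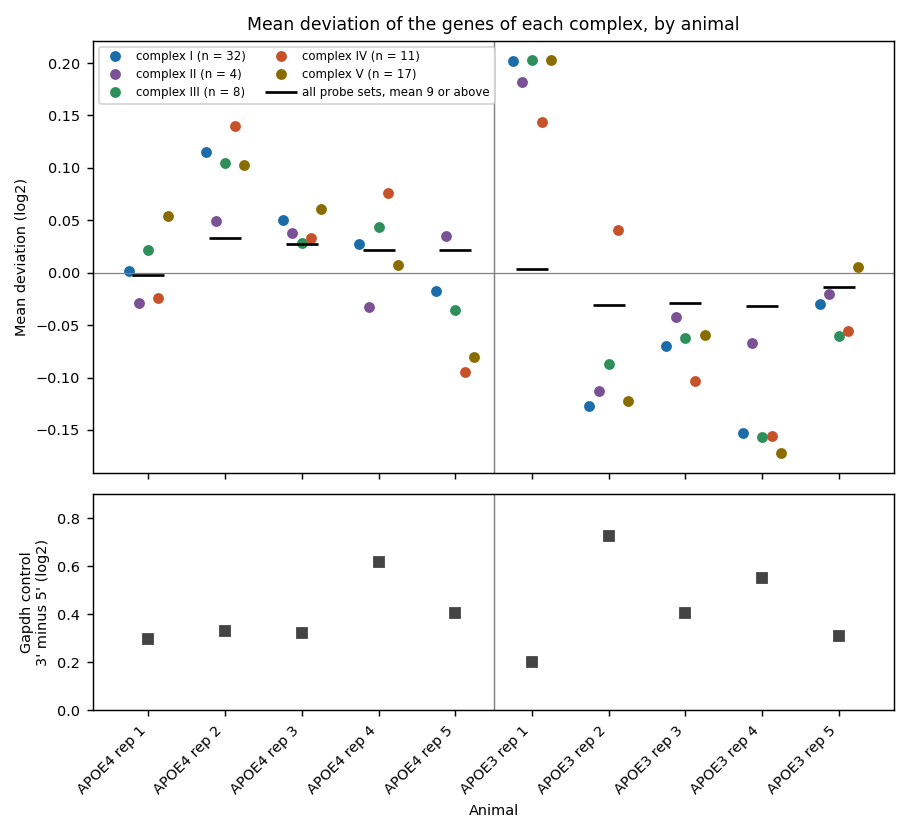
Mean deviation in log2 of the tested genes of each complex by animal (upper panel, APOE4 left of the vertical line, APOE3 right; black bars give all probe sets with a mean of at least 9) and the 3' minus 5' difference of the Gapdh control probe sets (lower panel). The points of APOE3 replicate 1 lie between 0.144 and 0.203, above those of the other 9 animals, and its Gapdh difference of 0.203 is the lowest.

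Other genes of mitochondrial respiration were read from lists set beside the chain, and none of their members passed. Assembly factors, which build the complexes and insert their cofactors, had 33 higher and 8 lower of 41 tested, with a median of 0.125 log2. Sco2, which delivers copper to complex IV, read 8.91, 8.96, 9.30, 9.31 and 9.18 log2 in APOE4 livers, against 9.87, 9.25, 9.96, 9.98 and 9.78 in APOE3 livers. All APOE4 livers but replicates 3 and 4 were below every APOE3 liver, and the difference was -0.64 (SE 0.15, adjusted p = 0.396 in limma). Bcs1l, which inserts the Rieske protein into complex III, was at 0.62 (SE 0.21, adjusted p = 0.56 in limma).

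Further subunits and electron carriers outside the symbol rule had 14 higher and 5 lower of 19 tested, with a median of 0.145. In this list Nnt, the transhydrogenase that makes mitochondrial NADPH, was at -0.31 (adjusted p = 0.58 in limma) and Coq5, of ubiquinone synthesis, at 0.27. Tricarboxylic acid cycle genes had 7 higher and 5 lower of 12, with a median of 0.024, and Cs, citrate synthase, at 0.29 and Idh3a at 0.27. Transport of adenine nucleotides, phosphate and other metabolites had 5 higher and 1 lower of 6, with Vdac2 at 0.062 and Slc25a5 at 0.081. Regulators of mitochondrial biogenesis had 7 higher and 7 lower of 14, with a median of -0.016, Gabpa, an activator of respiratory genes, at -0.25 and Polg2, of the mitochondrial DNA polymerase, at -0.19.

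By animal, some of these lists followed the chain. Assembly factors deviated by 0.195 log2 in APOE3 replicate 1 and -0.200 in APOE3 replicate 4, and the further subunits and carriers by 0.208 and -0.206. Tricarboxylic acid cycle genes deviated by 0.083 and -0.022 there, and biogenesis regulators by -0.022 and 0.033.

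The promoters of the chain were searched for letters that factors of mitochondrial biogenesis are known to bind. RefSeq windows on GRCm38.p6, from 250 bases before to 50 after a transcription start, were matched by symbol to 64 of the 79 genes, 69 windows in all. The short NRF1 form TGCGCA was found on either strand in 26.1% of the 69 windows, against 7.76% of all 32851 windows. The ETS motif CCGGAAG, which GABPA binds, was found in 24.6% against 8.86%, the ESRRA site AAGGTCA in 11.6% against 4.72%, and the YY1 motif AAGATGG in 13.0% against 6.34%. TATAAA was found in 11.6% against 13.6%. The NRF1 and YY1 letters are short forms, set after longer forms had been searched. The windows compared were not matched for base content, and its part in these shares was not tested. The tested genes with an NRF1 match had a median difference between genotypes of 0.052 log2 (16 genes) and those without one 0.058 (45 genes). With and without a match, the medians were 0.055 and 0.053 for ETS (17 genes with) and 0.064 and 0.052 for ESRRA (7 genes with). They were 0.094 and 0.052 for YY1 (9 genes with) and 0.122 and 0.052 for TATAAA (5 genes with). These gaps were not tested. A match describes the letters and shows no binding.

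The 250 bases before the start are shown, 5′ to 3′ on the gene's strand, for the gene with the most kinds of these 4 factor motifs in complexes I, III, IV and V, and for Cox6b1, which had the smallest p. Windows that lie over another annotated gene were not printed, and in complex II no window that could be printed held a motif. Capitals mark the matches to the factor motifs or their reverse complements, and no matches of different motifs share a base. The TGCGCA match begins 118 bases before the start in Cox6a1, 99 in Ndufs5 and 37 in Atp5g2. Other NRF1 forms were not marked: the Cox6a1 window also holds gcgcatgcgc, further from the start, which TGCGCA does not match. The ETS match begins 66 bases before the start in Uqcr11, 28 in Cox6b1 and 16 in Cox6a1. The windows are chr4:123718187-123718436, chr10:80406822-80407071, chr5:115348959-115349208, chr7:30626115-30626364 and chr15:102671048-102671297, all on the minus strand.
Ndufs5: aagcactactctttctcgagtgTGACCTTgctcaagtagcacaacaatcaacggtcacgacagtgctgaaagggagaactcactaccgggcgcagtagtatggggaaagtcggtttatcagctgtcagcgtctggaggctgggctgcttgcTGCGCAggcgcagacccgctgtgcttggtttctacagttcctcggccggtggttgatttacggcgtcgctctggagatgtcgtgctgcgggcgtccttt
Uqcr11: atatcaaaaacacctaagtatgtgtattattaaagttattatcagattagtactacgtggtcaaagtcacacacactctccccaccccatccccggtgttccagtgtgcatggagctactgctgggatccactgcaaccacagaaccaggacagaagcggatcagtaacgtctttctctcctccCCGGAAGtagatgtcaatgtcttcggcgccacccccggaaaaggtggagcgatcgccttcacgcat
Cox6a1: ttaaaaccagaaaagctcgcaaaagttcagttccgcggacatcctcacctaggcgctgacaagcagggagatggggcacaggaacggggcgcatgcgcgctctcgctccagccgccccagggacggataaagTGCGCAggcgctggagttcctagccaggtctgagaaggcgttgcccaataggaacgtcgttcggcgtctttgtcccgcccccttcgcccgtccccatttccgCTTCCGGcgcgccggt
Cox6b1: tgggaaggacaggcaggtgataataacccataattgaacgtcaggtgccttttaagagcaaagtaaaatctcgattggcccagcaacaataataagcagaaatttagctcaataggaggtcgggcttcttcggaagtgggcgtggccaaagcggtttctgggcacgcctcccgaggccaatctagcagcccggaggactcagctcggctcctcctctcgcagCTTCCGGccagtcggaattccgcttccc
Atp5g2: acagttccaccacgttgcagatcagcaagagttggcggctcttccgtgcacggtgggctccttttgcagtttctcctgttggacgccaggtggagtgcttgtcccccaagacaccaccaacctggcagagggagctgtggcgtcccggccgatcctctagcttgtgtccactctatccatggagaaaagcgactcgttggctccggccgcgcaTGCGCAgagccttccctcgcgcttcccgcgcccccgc
In the animals, these genes followed the common pattern to differing degrees: APOE3 replicate 1 was the highest of the 10 for Ndufs5 and Uqcr11 but not for Cox6a1, Cox6b1 or Atp5g2. Ndufs5 read 10.85, 10.92, 10.76, 10.79 and 10.67 log2 in APOE4 livers, against 11.11, 10.51, 10.69, 10.54 and 10.82 in APOE3 livers. Cox6a1 read 13.77, 13.80, 13.65, 13.68 and 13.71 log2 in APOE4 livers, against 13.74, 13.66, 13.76, 13.67 and 13.74 in APOE3 livers. The values of Cox6a1 spanned less than those of Ndufs5, and in neither gene were the genotypes separated.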

How the data were processed

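Labelled liver RNA of 10 animals was measured on one-colour arrays with 45101 probe sets. The authors deposited log2 values, which the submitters' processing notes credit to GCRMA 2.12.1 and R 2.7.1. This method subtracts a GC-dependent background and compresses low values. Scanner files were not used here, so saturation was not assessed. Groups came from the sample titles, and 0 columns belonged to no sample. Names came from the platform annotation (34958 probe sets with 1 symbol, 932 with several, 0 symbols changed by updating). Of the 72 tested genes, 11 were read by a probe set with the suffix s and 9 by one with x, which can bind related transcripts.

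Without 64 control probe sets, 14732 with a mean of at least 4 were tested with limma 3.58.1 in R 4.3.3 (lmFit, eBayes, no covariate, two-sided, Benjamini-Hochberg adjustment, threshold 0.05). The procedure was also run on simulated data in which probe sets varied independently, unlike the genes of the chain. There it recovered 46% of differences of 0.5 log2 and 76% of those of 1 log2, with 13 false calls among 172. Differences of up to 4 log2 were put in, and the 172 calls compare with 12 in the real values. The adjustment was therefore looser in the simulation, and these shares can overstate what was detectable here. With so few arrays the median SE of a difference was 0.142 log2. Genes were named by rule: the 3 smallest p per complex, core subunits, tissue forms of complex IV, the 3 most variable, the 2 smallest p of each further list and those at the ends of ranges; Atp5g1, Atp5g3, Ndufs5 and Uqcr11 were added after their values were seen. Members, lists and rules were chosen with earlier results of these data known. Alternatives covered filters, variance models, array weights, normalization, a floor at 4, the use of probe sets, a replicate block and each animal left out.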

Additional observations from a re-analysis of the deposited data

Results flagged for a closer look

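In 94 groups of 5 animals (named genes and the mean deviation of each complex, in each genotype) a single animal lay far from the other 4 in 8 cases by Dixon's test, where chance gives about 1 in 20. In APOE4 replicate 3, Cox6a2 was high at 2.52 log2 and Cox8b at 3.37, both under 4, on the array that also read striated muscle markers. In APOE4 replicate 5, Cox6c was low at 12.21 and Atp5pb at 12.55, and in APOE4 replicate 4 Atp5b was low at 12.33. In APOE3 replicate 1, Cox8a was high at 10.095 and the mean deviation of complex III at 0.203. In APOE3 replicate 2, Sco2 was low at 9.25.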

How the results depend on the processing

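The count of 0 genes past the adjusted threshold held under all 21 alternatives, and the median differences of the complexes moved by less than the SD between animals under each. Same-numbered animals are separate animals, and their deviations correlated at 0.00185, 0.186, 0.414, -0.0790 and 0.294 for numbers 1 to 5. Differently numbered animals were not correlated, so these values have no reference and cannot decide whether the numbers are pairs. No label gives a shared litter or day, and the numbers were not taken as pairs. With the replicate number as a replicate block, 0 genes passed, 0 had an unadjusted p under 0.05 (1 without the block), the smallest adjusted p in limma was 0.620 and 11 probe sets of the whole table were called, against 12 without it. Over the other settings the calls in the whole table ran from 5, with a filter at a mean of 6, to 15, with no filter, and were 7 with 1 probe set per gene. Genes of the chain with an unadjusted p under 0.05 numbered 0 to 4 over the settings that keep all animals, 10 without APOE3 replicate 1 and 0 or 1 without any other animal. The count of genes whose groups do not overlap was 1 with arrays centred on the median of the tested probe sets (Cox6c, lower in APOE4), and 0 to 9 when 1 animal was left out: 9 without APOE3 replicate 1, 1 without APOE3 replicate 4 (Atp5pb, lower in APOE4). Small differences changed sign, none of them called; the cause was not tested. With array weights Uqcrfs1 was at 0.0107 log2 and Cox6a1 at -0.00665. With renewed quantile normalization Ndufv1 was at -0.0295 and Uqcrc1 at -0.0161. With arrays centred on their median Uqcrfs1 was at 0.0274. With values under 4 set to 4 Cox7a1 was at -0.0132 and Cox7c at -0.128, and with the mean of all tested probe sets Ndufv1 was at -0.00546. With arrays centred on the median of the tested probe sets, Sdhd was at -0.00214, Ndufv1 at -0.0446, Uqcrc1 at -0.0356, Cox4i1 at -0.0311, Cox6a1 at -0.0488, Cox7a2 at -0.0140 and Cox7c at -0.0239. Leaving out 1 animal gave ranges of -0.0494 to 0.0423 for Uqcrfs1, -0.0125 to 0.0260 for Cox6a1, -0.0104 to 0.0791 for Uqcrc1, -0.0310 to 0.0560 for Ndufv1, -0.130 to 0.222 for Cox7c, -0.0952 to 0.00344 for Sdhb, -0.0606 to 0.0101 for Sdha, -0.0384 to 0.398 for Cox7a1 and -0.000294 to 0.119 for Cox7a2. Genes near 4 log2 are limited by the signal over background.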
